A study of Mus musculus with 16 samples.

Results

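Nitric oxide synthase 2 and the genes that supply, compete for or regulate its substrate arginine were followed in mGF, primary fibroblasts grown from explants of mouse gingiva. The set holds 10 of the 56941 genes in the deposited table. The members were picked by symbol. They are the inducible synthase Nos2, its cofactor enzyme Gch1, the arginine carrier Slc7a2 and the arginine-recycling enzymes Ass1 and Asl. The others are the arginases Arg1 and Arg2, the ornithine decarboxylase Odc1, and Ddah1 and Ddah2 of the dimethylarginine dimethylaminohydrolase family. The set was chosen by measured values in part, since the level of Nos2 in palmitate against BSA (control) in these same libraries was known when the genes were selected. Differences from BSA in the palmitate and palmitate + IL-1β libraries, the interaction of the agents, and every difference of Nos2 from BSA are therefore given as a description without a p-value. IL-1β against BSA was tested for the other members, in the same BSA libraries. The effect of palmitate was tested in the presence of IL-1β, in 8 libraries that the palmitate against BSA contrast does not hold. Members and the lists of other pathway genes were chosen with earlier results of these data known. The tests may therefore not be independent of that choice.

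The cells were wild-type C57Bl6 mGF from mice 3 to 6 months old, used between passages 2 and 8, and each of the 4 conditions had 4 libraries after 24 h. The conditions were BSA (control), the albumin vehicle, at 200 μM, IL-1β at 1 ng/mL, palmitate at 200 μM bound to BSA, and palmitate + IL-1β at those doses. All were cultured with 20% fetal bovine serum. Nothing in the labels says that the libraries of a condition came from separate mice or cultures, so p-values measure the spread between these libraries, which may be technical.

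Nitric oxide synthases turn arginine and oxygen into nitric oxide and citrulline. The inducible enzyme, encoded by Nos2, is controlled mainly through its transcription, needs tetrahydrobiopterin as cofactor and depends on arginine taken up by cationic amino acid carriers. Citrulline can be turned back into arginine by argininosuccinate synthase and lyase. Arginases compete for the same arginine and make ornithine, which ornithine decarboxylase passes into polyamines, while asymmetric methylarginines inhibit the synthases and are removed by the dimethylarginine dimethylaminohydrolases. In gum tissue, inducible nitric oxide synthase is known from inflamed sites, and macrophages are its best-known source.

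Counts assigned to genes totalled 21234789 to 92752515 per library, and palmitate replicate 10 was the deepest. Levels are CPM, library-size scaled counts that use TMM factors, and a count of 3 corresponded to 0.0331 to 0.146 CPM. The Poisson interval given below for Nos2 and this floor account for counting noise alone, because duplicate molecules made by PCR carried no tag. Intervals of log2 fold changes come from the fit and also hold the spread between libraries. The summed level of 10 fibroblast markers was 46375 to 57848 CPM, although Lum reached only 0.700 to 2.26 CPM. The summed level of 12 macrophage markers was 3.13 to 4.94 CPM in BSA, 3.77 to 4.37 CPM in IL-1β, 3.30 to 4.35 CPM in palmitate and 3.87 to 4.50 CPM in palmitate + IL-1β. Of these 12, Csf1r, Cd68, Lyz2, Mrc1, Cx3cr1 and Fcer1g had counts in all 16 libraries, led by Csf1r at 1.10 to 1.87 CPM (at most 122 counts) and Cd68 at 0.678 to 1.54 CPM (at most 83 counts). Tyrobp had no count in any library, and Ptprc, Adgre1, Itgam, C1qa and C1qb reached at most 7 counts. The part of other cells in the results below was not tested. Epithelial and endothelial marker sums reached at most 0.760 and 2.29 CPM. In bulk RNA, a change in the number of expressing cells and a change in RNA per cell cannot be told apart.

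Nos2 was almost undetected in BSA, with 4, 7, 0 and 0 counts in replicates 1 to 4, which is 0.118, 0.226, 0 and 0 CPM. Pooled over the 4 BSA libraries its level was 0.0920 CPM, with an exact Poisson interval of 0.0459 to 0.165 CPM (95%). IL-1β libraries held 29, 29, 35 and 21 counts, or 1.19, 1.13, 1.11 and 0.870 CPM. Every IL-1β library lay above every BSA library. Palmitate libraries reached 30.0, 38.3, 35.2 and 35.4 CPM, and palmitate + IL-1β libraries 37.0, 36.5, 36.3 and 34.8 CPM. These last groups overlapped, and both lay far above the other conditions. The gene (ENSMUSG00000020826.10) lies on the plus strand at chr11:78811613-78851080 of GRCm39, and 2.19% of its exon bases face an antisense gene, Gm71838.

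The palmitate effect on Nos2 with IL-1β present was tested against IL-1β alone with edgeR's quasi-likelihood test. Nos2 rose from 1.07 ± 0.140 to 36.1 ± 0.955 CPM (SD, n = 4), 33.6-fold, a log2 fold change of 5.06 ± 0.13 (SE, adjusted p = 8.1e-21). As a description, its mean in IL-1β was 12.5-fold that in BSA, a log2 fold change of 3.50 ± 0.39 (SE). This rested on BSA libraries with at most 7 counts, and without BSA replicate 2 the log2 fold change was 4.46. Adding IL-1β to palmitate moved Nos2 by 0.05 on the log2 scale, with a 95% interval from -0.12 to 0.21 (adjusted p = 0.79). As a description, the log2 fold change of palmitate against BSA was 8.51 ± 0.19 (SE), from 0.0861 to 34.7 CPM, and it was 9.47 without BSA replicate 2.

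**Figure D1:**
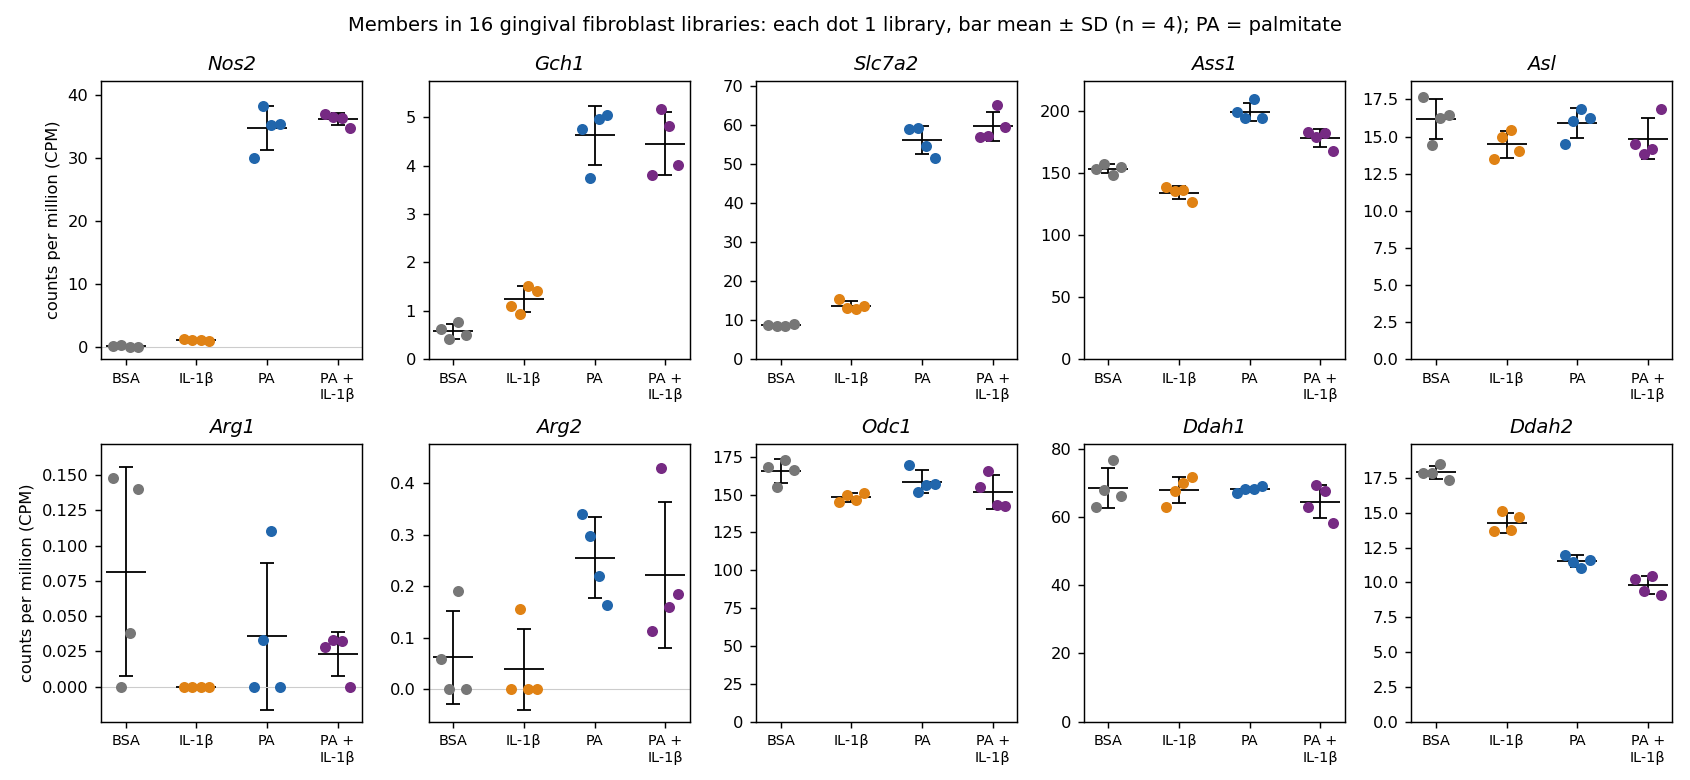
Level of each of the 10 members in CPM (vertical axis, from 0 except where error bars cross it) in the 4 conditions; each dot is 1 library and the bar gives the mean ± SD of 4. Nos2, Gch1 and Slc7a2 sit low in BSA and IL-1β and high in both palmitate conditions, Ddah2 falls from 17.9 to 9.82 CPM, and Arg1 and Arg2 stay below 0.5 CPM.

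Gch1 encodes GTP cyclohydrolase I, the rate-limiting enzyme of tetrahydrobiopterin synthesis. BSA libraries held 0.622, 0.420, 0.763 and 0.489 CPM and IL-1β libraries 1.10, 0.937, 1.52 and 1.41 CPM. Palmitate libraries held 4.76, 3.74, 4.96 and 5.05 CPM and palmitate + IL-1β libraries 3.80, 5.16, 4.82 and 4.02 CPM. Each IL-1β library lay over the BSA range and under every library with palmitate. Palmitate on top of IL-1β raised Gch1 from 1.24 ± 0.269 to 4.45 ± 0.649 CPM (SD, n = 4), a log2 fold change of 1.82 ± 0.17 (SE, adjusted p = 4.3e-10). IL-1β against BSA gave 1.13 ± 0.24 (SE, adjusted p = 0.00094). With palmitate present, IL-1β gave -0.03, with an interval from -0.32 to 0.26 (adjusted p = 0.94). Palmitate against BSA gave 2.98 ± 0.19 (SE), as a description. The gene lies at chr14:47391346-47426915 of GRCm39, minus strand.

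The Gch1 promoter is shown because its gene rose with Nos2. It comes from RefSeq (GRCm38.p6), whose table covers 5 of the 10 members (Gch1, Ass1, Ddah1, Ddah2 and Odc1) and not Nos2, Slc7a2, Arg1, Arg2 or Asl. Each entry was searched over the 250 bases before the RefSeq start, on both strands, for 7 motifs. These were the TATA box (TATAAA), the CCAAT box (CCAAT), the GC box (GGGCGG), AP-1 (TGANTCA), an IRF motif (GAAANNGAA), GAS (TTCNNNGAA) and the κB consensus. The sequence below runs 5′ to 3′ and matches GRCm39 exactly at chr14:47426916-47427120 on the minus strand, up to the base before the first exon in GENCODE, and capitals mark matches.
Gch1: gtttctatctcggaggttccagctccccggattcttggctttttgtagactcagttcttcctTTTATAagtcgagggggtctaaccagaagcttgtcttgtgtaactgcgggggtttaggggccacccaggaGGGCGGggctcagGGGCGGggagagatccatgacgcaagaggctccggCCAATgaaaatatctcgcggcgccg
The capitals are a TATA box match on the opposite strand, both GC boxes and a CCAAT box, which begin 188, 118, 105 and 70 bases before the RefSeq start. The κB consensus (GGGRNNYYCC) was matched at 1 place, 10 to 1 bases before the RefSeq start and so inside the first GENCODE exon. That stretch reads GGGGCTCCCC, which fits the pattern on both strands although the letters of the strands differ. The κB consensus occurs in 7.25% of the 32851 promoters in the table over the same 250 bases. The GC box occurs in 32.7%, the CCAAT box in 33.8% and the TATA box in 12.4%. A match describes letters and not a bound site.

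Of the other 7 genes of tetrahydrobiopterin synthesis and recycling, 5 passed the expression filter, and 2 of them rose with palmitate + IL-1β against IL-1β, 40.0% of the tested genes beside 18.9% of all genes. Spr, sepiapterin reductase, which makes the last step of synthesis, rose from 10.2 ± 2.20 to 13.0 ± 2.04 CPM (SD, n = 4), with a log2 fold change of 0.35 and an adjusted p of 0.029. Pcbd2, a pterin dehydratase of the recycling path, rose by 0.31 (adjusted p = 0.047). Libraries of Spr overlapped between the conditions and those of Pcbd2 did not. As a description, neither gene was called in palmitate against BSA, with log2 fold changes of 0.21 for Spr and 0.20 for Pcbd2. Gchfr, the feedback regulator of GTP cyclohydrolase, had at most 3 counts in a library.

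Slc7a2 encodes CAT2, a cationic amino acid carrier that takes up arginine. BSA libraries lay at 8.64, 8.43, 8.58 and 8.88 CPM and IL-1β libraries at 15.3, 13.1, 12.8 and 13.6 CPM. Palmitate libraries reached 59.1, 59.3, 54.8 and 51.7 CPM and palmitate + IL-1β libraries 56.9, 57.3, 65.1 and 59.6 CPM. The order was BSA, then IL-1β, then both palmitate conditions, which overlapped. Palmitate on top of IL-1β raised Slc7a2 from 13.7 ± 1.13 to 59.8 ± 3.77 CPM (SD, n = 4), 4.36-fold, with a log2 fold change of 2.13 ± 0.06 (SE, adjusted p = 1.4e-22). IL-1β against BSA gave 0.66 ± 0.07 (SE, adjusted p = 3.6e-08), and IL-1β on top of palmitate 0.09, with an interval from -0.03 to 0.20 (adjusted p = 0.38). Palmitate against BSA was 6.51-fold on the means, as a description. The gene lies at chr8:41315431-41375345 of GRCm39, plus strand, and 3.33% of its transcript is shared at 95% identity or more with transcripts of other genes.

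Of the other 6 arginine carriers and partners, all 6 passed the filter and only Slc3a2 was called with palmitate + IL-1β against IL-1β, 16.7% beside 18.9% of all genes called higher. Slc3a2, the heavy chain that brings several amino acid carriers to the membrane, rose from 313 ± 12.6 to 366 ± 19.5 CPM (SD, n = 4), a log2 fold change of 0.23 (adjusted p = 0.00013). Slc7a1 encodes CAT1, the constitutive arginine carrier, and is named here after its values were seen. IL-1β raised it from 97.0 ± 6.71 in BSA to 140 ± 10.9 CPM (SD, n = 4), a log2 fold change of 0.53 (adjusted p = 4.3e-09). With IL-1β present, palmitate moved Slc7a1 by 0.08, with an interval from -0.02 to 0.19 (adjusted p = 0.22), where Slc7a2 rose by 2.13. No test compared these carriers directly.

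Ass1 encodes argininosuccinate synthase, the first of the enzymes that rebuild arginine from citrulline. Its libraries held 153, 157, 148 and 154 CPM in BSA, 138, 135, 136 and 127 CPM in IL-1β, 199, 194, 209 and 194 CPM in palmitate, and 183, 179, 182 and 168 CPM in palmitate + IL-1β. The libraries of the 4 conditions did not overlap, in the order IL-1β, BSA, palmitate + IL-1β and palmitate. Palmitate on top of IL-1β raised Ass1 1.33-fold, a log2 fold change of 0.41 ± 0.04 (SE, adjusted p = 2.4e-09). IL-1β lowered Ass1, by 0.19 ± 0.04 (SE, adjusted p = 0.0014) on the log2 scale against BSA. IL-1β on top of palmitate gave -0.16 ± 0.04 (SE, adjusted p = 0.0099), and without palmitate replicate 11 this call was lost (adjusted p = 0.063). The gene lies at chr2:31352181-31410862 of GRCm39, plus strand. Another gene, Gm5424, shares 70.4% of the Ass1 transcript at 95% identity or more and held 50 to 254 counts in a library, where Ass1 held 3056 to 17615.

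Asl, argininosuccinate lyase, takes the next step of that cycle and did not pass the test in any of the tested comparisons. Its means were 16.2 ± 1.34, 14.5 ± 0.906, 15.9 ± 1.02 and 14.8 ± 1.39 CPM (SD, n = 4) in BSA, IL-1β, palmitate and palmitate + IL-1β, with overlapping libraries throughout. With IL-1β present, palmitate moved Asl by 0.03, with a 95% interval from -0.12 to 0.18 (adjusted p = 0.80).

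Both arginases stayed under the expression filter and were not tested in the fit. Arg1, the arginase of liver and of some macrophages, had 5, 0, 1 and 4 counts in BSA, 0 in every IL-1β library, 0, 3, 3 and 0 in palmitate, and 1, 1, 1 and 0 in palmitate + IL-1β. Arg2, the mitochondrial arginase, had 2, 0, 5 and 0 counts in BSA, 0, 4, 0 and 0 in IL-1β, 7, 27, 6 and 4 in palmitate, and 4, 13, 5 and 5 in palmitate + IL-1β. The count of 27 belonged to the deepest library, where it amounts to 0.298 CPM. Pooled Arg2 levels were 0.0585 CPM in BSA and 0.0378 CPM in IL-1β, and 0.270 and 0.218 CPM in the palmitate conditions without and with IL-1β. The libraries overlapped in palmitate against BSA and in palmitate + IL-1β against IL-1β. Without the expression filter, over 38131 genes, Arg2 was higher in palmitate + IL-1β than in IL-1β by 2.40 ± 0.77 on the log2 scale (SE, adjusted p = 0.015). That fit put Arg1 lower in IL-1β than in BSA by 4.48 ± 1.56 (SE), which did not pass (adjusted p = 0.062). Of the Arg2 exon bases, 41.8% face Vti1b or Gm48780 on the other strand, and Vti1b held 1291 to 5878 counts in a library.

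Odc1 encodes ornithine decarboxylase, which feeds ornithine into polyamines. Its libraries held 168, 155, 173 and 166 CPM in BSA, 145, 150, 147 and 151 CPM in IL-1β, 169, 152, 156 and 157 CPM in palmitate, and 155, 166, 143 and 142 CPM in palmitate + IL-1β. IL-1β libraries all lay below the BSA libraries and, by a narrow margin, below the palmitate libraries, and the other pairs of conditions overlapped. IL-1β lowered Odc1, by 0.16 ± 0.05 (SE, adjusted p = 0.021), and the call was lost without BSA replicate 3, IL-1β replicate 5 or IL-1β replicate 7 (adjusted p between 0.053 and 0.062). Palmitate on top of IL-1β gave 0.03, with an interval from -0.06 to 0.13 (adjusted p = 0.63). Other genes share 73.4% of the Odc1 transcript at 95% identity or more. Reads that fit several places may be missing from the Odc1 count, which was not tested.

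Other genes of arginine, ornithine and creatine metabolism were 13, of which 7 were tested, and 1 rose and 2 fell with palmitate + IL-1β against IL-1β. These are 14.3% and 28.6% of the tested genes, beside 18.9% and 16.1% of all genes. Gamt, which completes creatine synthesis from arginine-derived guanidinoacetate, fell from 3.78 ± 1.12 to 1.71 ± 0.183 CPM (SD, n = 4), by 1.14 on the log2 scale (adjusted p = 2.8e-05). Oat, ornithine aminotransferase, fell from 205 ± 1.72 to 185 ± 2.17 CPM (SD, n = 4), by 0.15 (adjusted p = 0.0035). Azin2, an antizyme inhibitor, rose by 0.34 (adjusted p = 0.00015). Agmat had no count in any library, and Otc and Cps1 of the urea cycle had at most 2.

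Of 14 polyamine genes, 12 were tested, and 3 rose and 2 fell with palmitate + IL-1β against IL-1β. Their shares, 25.0% and 16.7%, were near the 18.9% and 16.1% of all genes. Smox, spermine oxidase, rose from 9.95 ± 0.883 to 15.4 ± 1.89 CPM (SD, n = 4), by 0.63 (adjusted p = 4.3e-07). The falls were those of Oaz2, an ornithine decarboxylase antizyme, by 0.22 (adjusted p = 0.0040), and of Paox, which oxidizes acetylated polyamines, by 0.37 (adjusted p = 0.025).

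Ddah1 and Ddah2 encode members of the dimethylarginine dimethylaminohydrolase family, which is named for the breakdown of asymmetric methylarginines. The activity of either enzyme was not measured. Ddah2 lies at chr17:35277987-35281073 of GRCm39, plus strand. Its libraries held 17.9, 17.9, 18.5 and 17.3 CPM in BSA, 13.7, 15.1, 13.7 and 14.7 CPM in IL-1β, 12.0, 11.5, 11.0 and 11.6 CPM in palmitate, and 10.3, 9.40, 10.5 and 9.14 CPM in palmitate + IL-1β. The conditions did not overlap and fell in that order. Palmitate on top of IL-1β lowered Ddah2 from 14.3 ± 0.709 to 9.82 ± 0.648 CPM (SD, n = 4), by 0.54 ± 0.07 on the log2 scale (SE, adjusted p = 1.4e-07). IL-1β lowered it by 0.33 ± 0.06 against BSA (SE, adjusted p = 0.00049). IL-1β on top of palmitate gave -0.23 ± 0.07 (SE, adjusted p = 0.030), and this call was lost with no expression filter (adjusted p = 0.052) and without replicate 9, 10, 12, 14 or 16 (adjusted p between 0.067 and 0.10). Ddah1, in contrast, had means of 68.4 ± 5.88, 68.0 ± 3.83, 68.0 ± 0.851 and 64.5 ± 4.95 CPM (SD, n = 4) in BSA, IL-1β, palmitate and palmitate + IL-1β. Its libraries overlapped in every pair of conditions, and palmitate on top of IL-1β gave -0.08, with an interval from -0.19 to 0.04 (adjusted p = 0.31).

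Both promoters are shown for the pair of enzymes of which Ddah2 was called and Ddah1 was not. They come from the same RefSeq table (GRCm38.p6), run 5′ to 3′ up to the first GENCODE exon, and match GRCm39 exactly on the plus strand at chr17:35277761-35277986 for Ddah2 and chr3:145464197-145464360 for Ddah1. Capitals mark matches to the 7 motifs.
Ddah2: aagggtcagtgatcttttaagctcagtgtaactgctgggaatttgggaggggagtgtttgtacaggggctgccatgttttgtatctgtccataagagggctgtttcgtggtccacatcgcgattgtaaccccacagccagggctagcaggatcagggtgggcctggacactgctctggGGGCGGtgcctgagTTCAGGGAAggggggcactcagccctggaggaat
Ddah1: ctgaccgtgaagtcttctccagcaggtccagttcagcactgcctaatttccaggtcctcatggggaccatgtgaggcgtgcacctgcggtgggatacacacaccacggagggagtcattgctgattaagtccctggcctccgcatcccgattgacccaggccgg
The Ddah2 stretch holds a GC box and a GAS match, which begin 72 and 58 bases before the RefSeq start, and a further GC box lay 9 bases before it, inside the first GENCODE exon. GAS occurs in 7.02% of the promoters in the table. The 250 bases of Ddah1 held none of the 7 motifs, which says only that these letters are not in that window. AP-1 and the IRF motif occur in 6.75% and 7.13% of promoters and matched none of the 5 member promoters.

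Among 10 arginine methyltransferases and methylarginine genes, 8 were tested, and 2 rose with palmitate + IL-1β against IL-1β, 25.0% beside 18.9% of all genes. Prmt3 rose from 39.3 ± 2.21 to 48.4 ± 3.51 CPM (SD, n = 4), by 0.30 (adjusted p = 7.3e-05), and Prmt7 by 0.24 (adjusted p = 0.0024). Both encode enzymes that methylate arginine in proteins. Agxt2, a mitochondrial enzyme with another route for removing methylarginines, had at most 2 counts. Of 7 genes that respond to nitric oxide or remove it, 5 were tested and 2 fell, 40.0% beside 16.1% of all genes. Gucy1a2, a soluble guanylate cyclase subunit, fell from 6.23 ± 0.827 to 3.78 ± 0.795 CPM (SD, n = 4), by 0.71 (adjusted p = 0.00023). Cygb, cytoglobin, a heme protein that can oxidize nitric oxide, fell from 2.75 ± 0.234 to 1.66 ± 0.399 CPM (SD, n = 4), by 0.72 (adjusted p = 0.00089). The other cyclase subunits Gucy1a1 and Gucy1b1 had at most 10 and 3 counts in a library, and the neuronal and endothelial synthases Nos1 and Nos3 at most 6 and 9. The 3 tested partners of the synthases had adjusted p-values between 0.31 and 0.81.

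Of the 10 members, 8 passed the expression filter. With palmitate + IL-1β against IL-1β, 4 of the 8 rose (Nos2, Gch1, Slc7a2 and Ass1) and 1 fell (Ddah2). Over the 16306 genes tested, 18.9% and 16.1% were called higher and lower. That count of members includes Nos2, whose level with palmitate was known when they were chosen, so nothing is read from it. IL-1β against BSA raised Gch1 and Slc7a2 and lowered 3 members (Ass1, Ddah2 and Odc1), beside 10.1% and 4.97% of all genes, with Nos2 given as a description. IL-1β on top of palmitate gave 2 calls, both lower (Ass1 and Ddah2), beside 5.71% higher and 4.10% lower over all genes. For palmitate against BSA, as a description, 4 members were higher and 1 lower, beside 19.8% and 17.5%. For palmitate + IL-1β against BSA, 4 were higher and 2 lower, beside 24.8% and 22.5%. Nothing is read from these counts either, since the choice of members used palmitate and BSA values. With upper-quartile scaling, the higher share of all calls moved from 53.1% to 37.1% in palmitate against BSA, from 67.1% to 43.5% in IL-1β against BSA and from 52.4% to 38.7% in palmitate + IL-1β against BSA, while the medians of all genes moved by less than 0.1 on the log2 scale. In palmitate + IL-1β against IL-1β it moved from 54.0% to 45.5%.

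**Figure D2:**
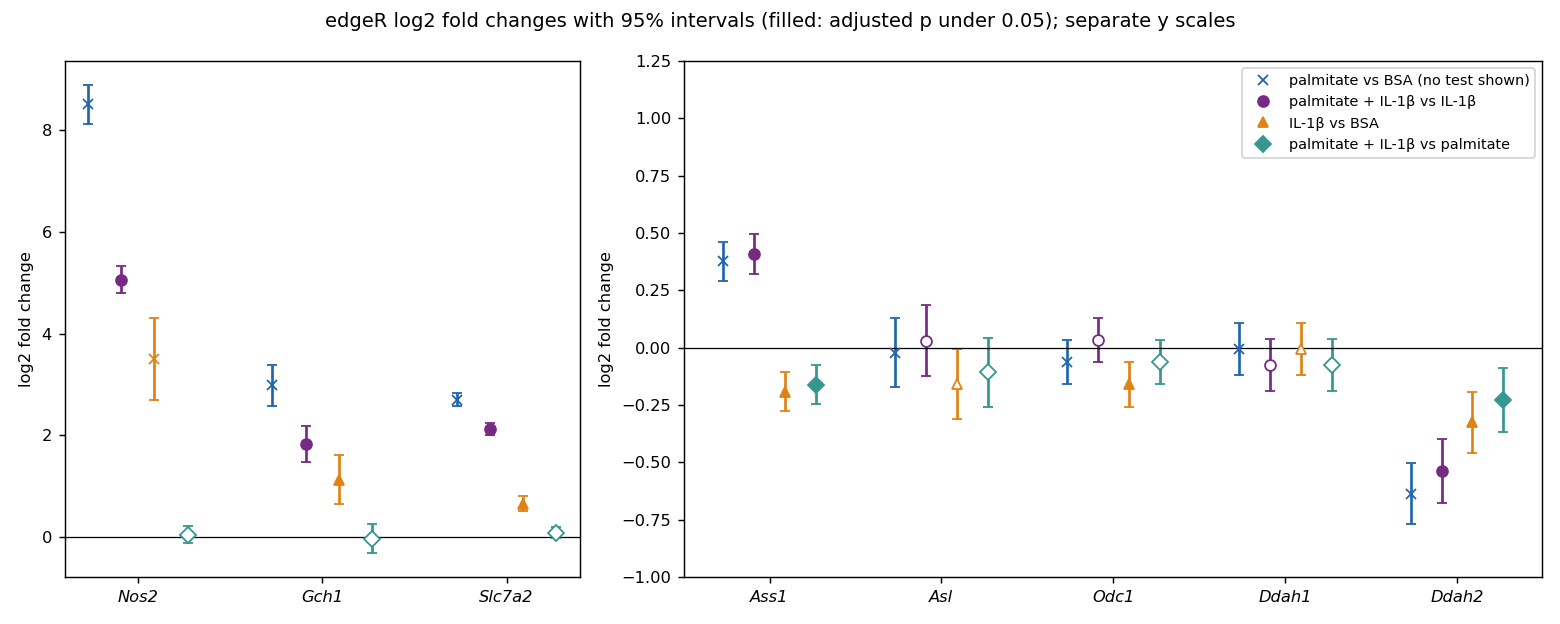
Log2 fold changes of the 8 tested members (vertical axes, with separate scales for the large and small changes) with 95% intervals in 4 comparisons, filled where the adjusted p was under 0.05, and with crosses for palmitate against BSA and for Nos2 in IL-1β against BSA, for which no test is shown. The intervals of Nos2, Gch1 and Slc7a2 lie wholly above 0 except for IL-1β on top of palmitate, where they include 0, and Ddah2 lies below 0 in every comparison drawn.

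To compare levels between genes, CPM was divided by the length of each gene's merged exons in kilobases. Merged exons exceed the canonical transcript unevenly, with 6694 against 2812 bases for Gch1 and 4439 against 4192 for Nos2. The levels and overlaps below depend on that choice of length. Ass1 and Odc1 share 70.4% and 73.4% of their transcripts with other genes, so their counts may lack reads, which was not tested. In BSA the order was Ass1 (41.0 CPM per kilobase), Odc1 (29.2), Ddah1 (11.4), Ddah2 (7.73), Asl (2.43), Slc7a2 (0.854) and Gch1 (0.0857), followed by Arg2, Arg1 and Nos2 at 0.0429, 0.0255 and 0.0194. Libraries of neighbours in that order did not overlap down to Gch1, and from Gch1 on, neighbours overlapped. In palmitate + IL-1β, Nos2 stood at 8.14 ± 0.215 CPM per kilobase (SD, n = 4), between Ddah1 at 10.7 ± 0.824 and Slc7a2 at 5.91 ± 0.373, and its libraries overlapped with neither. In palmitate alone, Nos2 stood at 7.82 ± 0.780, while Slc7a2 at 5.56 ± 0.363 and Ddah2 at 4.98 ± 0.175 overlapped. Gch1 stayed low in every condition, at 0.665 ± 0.0969 in palmitate + IL-1β.

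**Figure D3:**
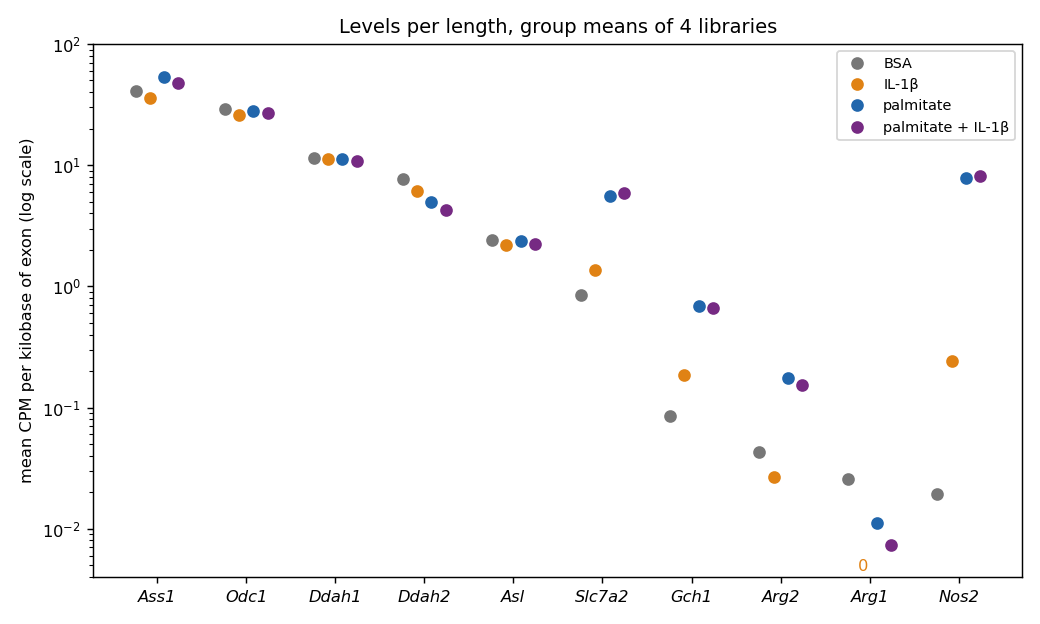
Mean level per length of each member in CPM per kilobase of merged exon (log axis) in the 4 conditions, n = 4 libraries each, with genes ordered by their BSA level and 0 marking Arg1 in IL-1β. Nos2 is the lowest of the 10 in BSA at 0.0194 and reaches 8.14 in palmitate + IL-1β, between Slc7a2 and Ddah1.

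The palmitate effect with IL-1β minus that without it, the interaction on the log2 scale, holds the palmitate against BSA values that the choice of members used and is given as a description. It was -3.45 ± 0.40 (SE) for Nos2, -1.16 ± 0.28 (SE) for Gch1 and -0.58 ± 0.09 (SE) for Slc7a2. That of Nos2 was -4.42 without BSA replicate 2. For Ass1 it was 0.03, with an interval from -0.09 to 0.15, and for Ddah2 0.10, with an interval from -0.10 to 0.29. Of the 8 members, 3 passed the threshold, all lower, beside 0.159% higher and 1.83% lower over all genes, and nothing is read from that count. Gch1 was not among them without BSA replicate 2, BSA replicate 4 or IL-1β replicate 7.

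On the linear scale the same values were added up, as a description computed after the data were seen and without a test. The sums hold the palmitate against BSA values that the choice of members used. The BSA level of Nos2 plus the change with IL-1β (0.988 CPM) and the change with palmitate (34.6 CPM) added up to 35.7 CPM, where 36.1 CPM was measured with both, a difference of 0.435 ± 1.80 CPM (SE). For Slc7a2 the sum was 61.3 CPM and the measured level 59.8 CPM, a difference of -1.51 ± 2.69 CPM (SE). For Gch1 the sum was 5.30 CPM and the measured level 4.45 CPM, a difference of -0.847 ± 0.470 CPM (SE). For Nos2 the SE was larger than the change with IL-1β, so the measured level cannot tell the sum from palmitate alone. Slc7a2 with both agents lay between palmitate alone (56.2 CPM) and the sum, and its libraries overlapped with those of palmitate alone. Its level therefore cannot tell these apart either. The differences of Nos2 and Slc7a2 were smaller than their SE. Leaving out each library in turn, they ranged from -1.12 to 1.65 CPM for Nos2, from -3.27 to -0.457 CPM for Slc7a2 and from -1.14 to -0.643 CPM for Gch1.

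**Figure D4:**
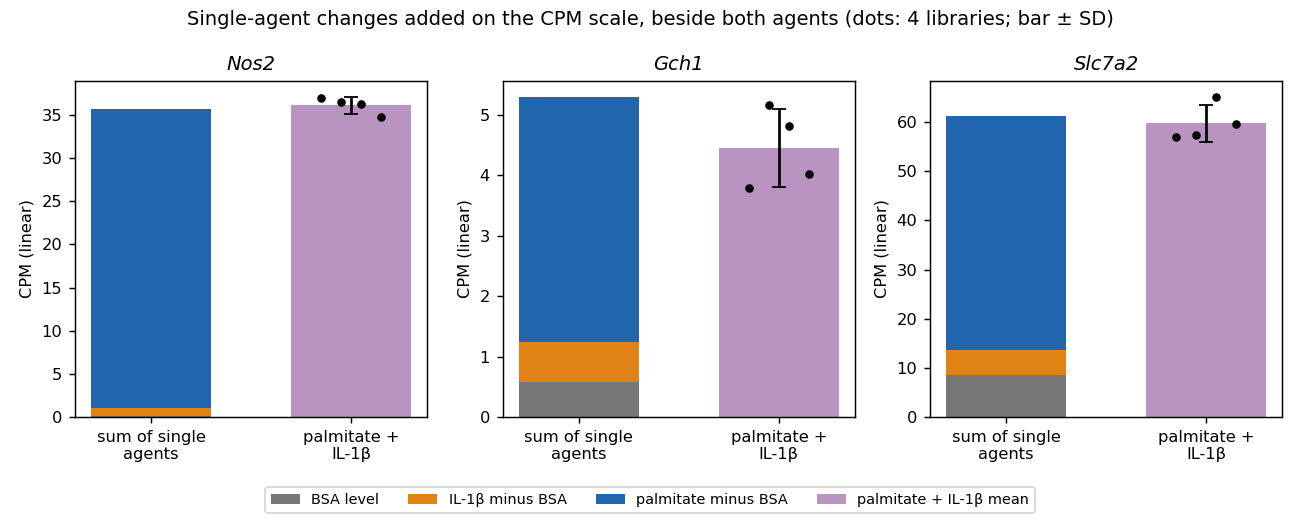
Level in CPM (linear axes from 0) of Nos2, Gch1 and Slc7a2: the left bar stacks the BSA mean and the changes with IL-1β and with palmitate, and the right bar gives the palmitate + IL-1β mean ± SD with its 4 libraries as dots. The bars reach 35.7 and 36.1 CPM for Nos2, 5.30 and 4.45 CPM for Gch1, and 61.3 and 59.8 CPM for Slc7a2.

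Of 62 other genes of the pathway in 7 role lists, 46 were tested. With palmitate + IL-1β against IL-1β, 9 rose (19.6%) and 6 fell (13.0%), shares near the 18.9% and 16.1% of all genes tested, and their median log2 fold change was 0.04 beside 0.01 over all genes. IL-1β against BSA called 5 higher (10.9%) and 4 lower (8.70%), beside 10.1% and 4.97% of all genes. IL-1β on top of palmitate called 3 (6.52%), all higher, beside 5.71% of all genes. The lists were chosen with earlier results of these data known, so these shares are a description. The lists share no gene with the members. With palmitate + IL-1β against IL-1β, the 8 tested members had a median log2 fold change of 0.22. Their largest, 5.06, was that of Nos2, whose level with palmitate was known when the members were chosen.

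**Figure D5:**
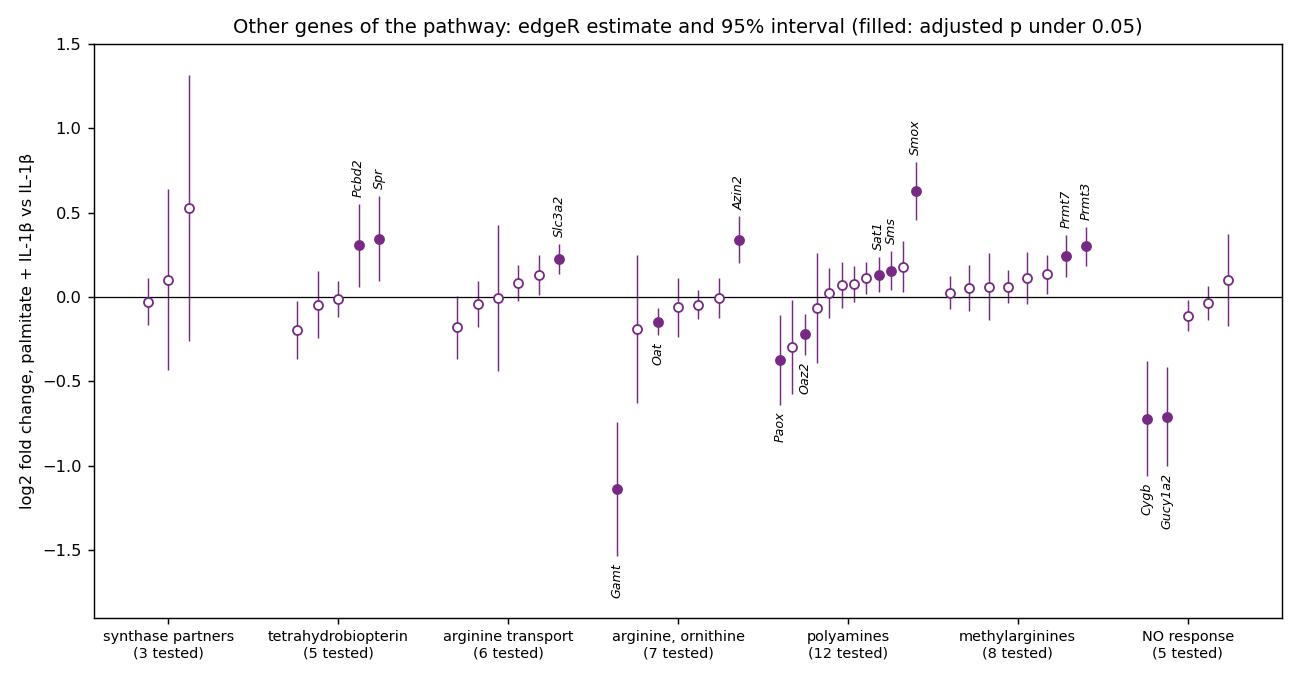
Log2 fold change of palmitate + IL-1β against IL-1β (vertical axis) with 95% intervals for the 46 other tested genes of the pathway, by role list, filled and named where the adjusted p was under 0.05. The largest change is that of Gamt at -1.14, and 31 of the 46 genes are open circles.

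The genes whose levels ran most closely with Nos2 were sought over the 16 libraries, as Pearson's r on log2 CPM (prior count 2), among 11819 tested genes with an average log2 CPM of at least 1. They were Syt7 (r = 0.992), Cxcl16 (r = 0.992), Tlr2 (r = 0.990), D630003M21Rik (r = 0.990) and Gsap (r = 0.989). The 16 points fall into 4 conditions and share library depth, so these values describe the order of the conditions. Cxcl16, a membrane-bound chemokine, went from 2.69 CPM in BSA to 7.86 in IL-1β, and to 57.1 and 58.0 CPM with palmitate, without and with IL-1β. Tlr2, a receptor of the innate immune system, stood at 12.7, 28.0, 91.8 and 85.2 CPM in the same order. Among the members, r with Nos2 was 0.977 for Slc7a2, 0.962 for Gch1, 0.741 for Ass1 and -0.945 for Ddah2, and between -0.335 and -0.161 for Asl, Ddah1 and Odc1. All these r values hold the palmitate and BSA libraries whose Nos2 level was known when the members were chosen, and are a description.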

How the data were processed

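Bulk RNA of 16 mGF libraries, 4 per condition, was analysed. Per the labels and the methods, the authors trimmed reads (Trimmomatic 0.39), aligned them to GRCm39 with GENCODE vM33 (STAR 2.7.10a) and counted them per gene (HTSeq 2.0.9), and the deposited values are raw counts, counted by strand per the name of the table. The methods describe oligo(dT)-primed cDNA, but the kit in the labels is one for total RNA with strand kept. The 5 summary rows that name no gene held a median of 19.0% of reads and were left out.

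Counts were tested with edgeR 4.0.16 (R 4.3.3): filterByExpr (minimum count 10), TMM, robust glmQLFit and glmQLFTest in 1 fit of all 16 libraries, a mean per condition, and Benjamini-Hochberg adjustment over 16306 genes. Calls are at an adjusted p under 0.05, and the SE is the log2 fold change over the root of the quasi F. The common biological coefficient of variation was 6.08%. Replicate pairs differed beyond counting noise. Members and gene lists were chosen with earlier results of these data known. Named are all members, up to 3 called genes per role list by adjusted p in palmitate + IL-1β against IL-1β, genes without counts and the 5 genes most like Nos2. Alternatives were DESeq2 1.42.0, upper-quartile scaling, no filter, only the libraries compared and leaving out each library. Positions come from GENCODE vM39, and shared sequence from BLAST 2.17.0 over at least 100 bases.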

Additional observations from a re-analysis of the deposited data

Results flagged for a closer look

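The palmitate effect with IL-1β minus that without it was -3.45 on the log2 scale for Nos2, -1.16 for Gch1 and -0.58 for Slc7a2. These drew attention through the interaction term, which holds the palmitate against BSA values known when the members were chosen, so they are a description and not a test. Of 39 sets of 4 libraries examined for a library far from the other 3 (Dixon's gap over range, 95% critical value), 2 stood out. Both were arginases with at most 4 counts in a library, where whole counts alone make such gaps. The critical value is therefore no guide to chance there. Arg1 was at 0 CPM in palmitate + IL-1β replicate 16, where the other 3 libraries held 1 count each. Arg2 was at 0.156 CPM in IL-1β replicate 6, from 4 counts, and at 0 in the other 3 libraries.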

How the results depend on the processing

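No paired analysis was possible because the labels number the libraries 1 to 16 with no number shared between conditions. The number of members called for IL-1β on top of palmitate, 2, became 1 without the expression filter and ranged from 1 to 2 as each library was left out. The other pathway genes called there, 3, became 5 with DESeq2, with upper-quartile scaling and with only the libraries compared, and ranged from 2 to 5 as libraries were left out. Signs turned only in values that had not been called. Asl with palmitate + IL-1β against IL-1β was -0.0014 with upper-quartile scaling. As each library was left out, Asl ranged from -0.033 to 0.055 there, from -0.084 to 0.015 in palmitate against BSA and from -0.012 to 0.11 in the interaction. Ddah1 ranged from -0.055 to 0.054 in palmitate against BSA and from -0.051 to 0.053 in IL-1β against BSA, and Odc1 from -0.019 to 0.063 in palmitate + IL-1β against IL-1β. With IL-1β on top of palmitate, Nos2 ranged from -0.0094 to 0.11 and Gch1 from -0.15 to 0.039. The cause of these changes was not tested. Odc1 in palmitate + IL-1β against BSA lost its call without replicates 3, 4, 15 or 16. Upper-quartile scaling added calls, all lower, for Odc1 in palmitate against BSA and for Asl and Ddah1 in palmitate + IL-1β against BSA. Calls in these contrasts with BSA belong to the description, and nothing is read from them. At these depths, 3 counts are up to 0.146 CPM, so the arginases and the BSA level of Nos2 rest on few counts.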

Other observations

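Ratios between related members within a library, taken per kilobase of exon and after the values were seen, are given without a test. Ddah1 over Ddah2 was 1.47 ± 0.0968 in BSA and 1.83 ± 0.109 in IL-1β, and 2.28 ± 0.0982 and 2.54 ± 0.211 with palmitate, without and with IL-1β (SD, n = 4). Ass1 over Asl was 17.0 ± 1.71 in BSA and 16.6 ± 1.19 in IL-1β, and 22.4 ± 1.47 and 21.6 ± 2.59 with palmitate, without and with IL-1β (SD, n = 4).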
